A study of Homo sapiens with 12 samples.

Results

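The APOE-APOC1-APOC4-APOC2 cluster is a group of 4 apolipoprotein genes on chromosome 19, all transcribed in the same direction. Its chromatin was described from the peaks of 3 histone marks in HepG2, an established human hepatocellular carcinoma line that was not treated. Members were all peaks that overlapped chromosome 19 from 45380000 to 45470000 (GRCh37) by at least 1 bp, a window set by position and not by the height of any peak. The window held 62 of the 273551 peaks listed on chromosomes 1 to 22 and X. They were 27 of 66513 H3K27ac peaks, 27 of 182592 H3K4me1 peaks and 8 of 24446 H3K4me3 peaks. On the same build APOE spans 45409039 to 45412650, APOC1 45417921 to 45422606, APOC4 45445495 to 45448753 and APOC2 45449239 to 45452822, and all 4 lie on the plus strand.

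ChIP-seq, which sequences the DNA recovered with an antibody to each mark, was done in 12 libraries, 3 for each mark and 3 controls. The control libraries are titled as input but carry an anti-mouse IgG antibody label, and which kind of control they are was not settled. The stated aim of the series was to rank candidate causal variants by these marks. Each mark had 1 peak list pooled over its libraries, so the values below have no replicate error and no difference was tested against a spread between cultures. The depth of the libraries is unknown, and a longer list can follow from deeper sequencing.

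Apolipoproteins are the protein parts of lipoprotein particles, which carry cholesterol and triglycerides through the blood, and the liver makes much of them. APOE encodes a ligand through which lipoprotein remnants are taken up by receptors of the LDL receptor family. APOC2 encodes the activator that lipoprotein lipase needs, APOC1 an inhibitor of lipoprotein uptake and of cholesteryl ester transfer, and APOC4 a less studied apolipoprotein. Liver transcription of the cluster is known to depend on distal enhancers downstream of APOC1, called hepatic control regions, whose positions were not analysed here. H3K4me3 is found mainly at active promoters, H3K4me1 at enhancers and promoter flanks, and H3K27ac at both when they are active.

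The 4 promoters are shown because the marks at the gene starts differed between APOC4 and the other 3 genes. Each sequence runs from 250 bases before the start to 50 bases from the start onwards, on the plus strand, as given by RefSeq. Its positions belong to build GRCh38.p14 and cannot be set against the GRCh37 positions of the peaks. Measured from APOE, the RefSeq starts lay 6, 15 and 55 bp away from the GRCh37 spacing of APOC1, APOC4 and APOC2. RefSeq lists 3 starts for APOE, of which the most upstream is shown. Capitals mark a TATA box core (TATAA) or a GC box (GGGCGG), searched on both strands.
APOE, chr19:44905546-44905845: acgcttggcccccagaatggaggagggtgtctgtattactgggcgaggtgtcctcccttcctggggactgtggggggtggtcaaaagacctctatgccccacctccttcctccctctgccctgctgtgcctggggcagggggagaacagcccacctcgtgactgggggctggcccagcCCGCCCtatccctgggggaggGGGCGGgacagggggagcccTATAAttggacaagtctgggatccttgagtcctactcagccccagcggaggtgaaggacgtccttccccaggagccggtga
APOC1, chr19:44914422-44914721: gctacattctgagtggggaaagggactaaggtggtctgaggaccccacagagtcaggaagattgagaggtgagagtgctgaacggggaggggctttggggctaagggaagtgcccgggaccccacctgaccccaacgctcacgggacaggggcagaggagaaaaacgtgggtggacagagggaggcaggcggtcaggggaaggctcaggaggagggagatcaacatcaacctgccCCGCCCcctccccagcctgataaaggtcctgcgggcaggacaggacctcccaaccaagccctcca
APOC4, chr19:44941987-44942286: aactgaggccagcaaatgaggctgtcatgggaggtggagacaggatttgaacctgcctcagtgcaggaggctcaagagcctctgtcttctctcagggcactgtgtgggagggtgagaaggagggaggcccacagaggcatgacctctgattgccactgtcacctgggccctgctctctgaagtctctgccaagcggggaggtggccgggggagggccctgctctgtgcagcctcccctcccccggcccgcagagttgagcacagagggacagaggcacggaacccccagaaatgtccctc
APOC2, chr19:44945801-44946100: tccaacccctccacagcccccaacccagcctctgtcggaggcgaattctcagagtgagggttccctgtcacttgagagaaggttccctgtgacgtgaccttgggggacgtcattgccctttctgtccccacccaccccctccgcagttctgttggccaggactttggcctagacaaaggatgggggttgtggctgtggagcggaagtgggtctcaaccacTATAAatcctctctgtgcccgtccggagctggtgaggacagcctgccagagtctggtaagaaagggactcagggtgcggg

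The APOE and APOC2 promoters each held the TATAA letters, 31 and 30 bases before the start. The APOC1 and APOC4 promoters held them on neither strand, and 21.2% of the 27305 RefSeq promoters of this length held them on either strand. The GC box letters occurred 2 times in APOE and 1 time in APOC1, and in 44.5% of all promoters. Neither motif was found in the APOC4 window. CpG dinucleotides numbered 8 in APOE, 8 in APOC1, 5 in APOC4 and 9 in APOC2, against a median of 13 over all promoters. APOC4 thus had the fewest CpG of the 4, and all 4 were below that median. A match to such letters describes the sequence and does not show a bound factor.

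The window was far more densely marked than the genome as a whole. H3K27ac peaks covered 56160 of its 90001 bp (62.4%), against 8.28% of chromosome 19 and 3.04% of chromosomes 1 to 22 and X. H3K4me1 covered 60.1% of the window, against 14.5% of chromosome 19 and 6.47% of the genome. H3K4me3 covered 20.0% of it, against 4.93% and 1.49%. Chromosome 19 was itself above the genome for each mark, and the window stood 7.53 times above its chromosome for H3K27ac, 4.16 times for H3K4me1 and 4.06 times for H3K4me3. When the genome was laid out in 33727 fixed tiles of the window's length, 12 tiles were covered at least as much by H3K27ac, 93 by H3K4me1 and 68 by H3K4me3. On chromosome 19 alone this was true of 1, 4 and 10 of 656 tiles. Those ranks describe the pooled lists, and the window was not drawn at random.

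Only 27.3% of the window carried none of the marks. H3K27ac with H3K4me1 but without H3K4me3, a combination found at active enhancers and promoter flanks, took up 37.1% of its bases. That share was counted by base. It includes parts of H3K27ac peaks that overlap H3K4me3 elsewhere, such as those at the starts of APOE, APOC1 and APOC2. The share of this combination over the genome was not computed. All 3 marks together took up 12.8% of the window. H3K4me1 without the other marks covered 10.1%. Of the bases inside H3K4me1 peaks, 83.0% were also inside H3K27ac peaks, compared with 32.6% over the genome. H3K27ac peaks held 99.1% of the H3K4me3 bases of the window, against 77.3% over the genome. Of the H3K27ac bases of the window, 79.9% were also inside H3K4me1 peaks, against 69.4% over the genome. The share of H3K27ac bases inside H3K4me3 peaks was 31.8%, below the 37.9% over the genome.

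**Figure D1:**
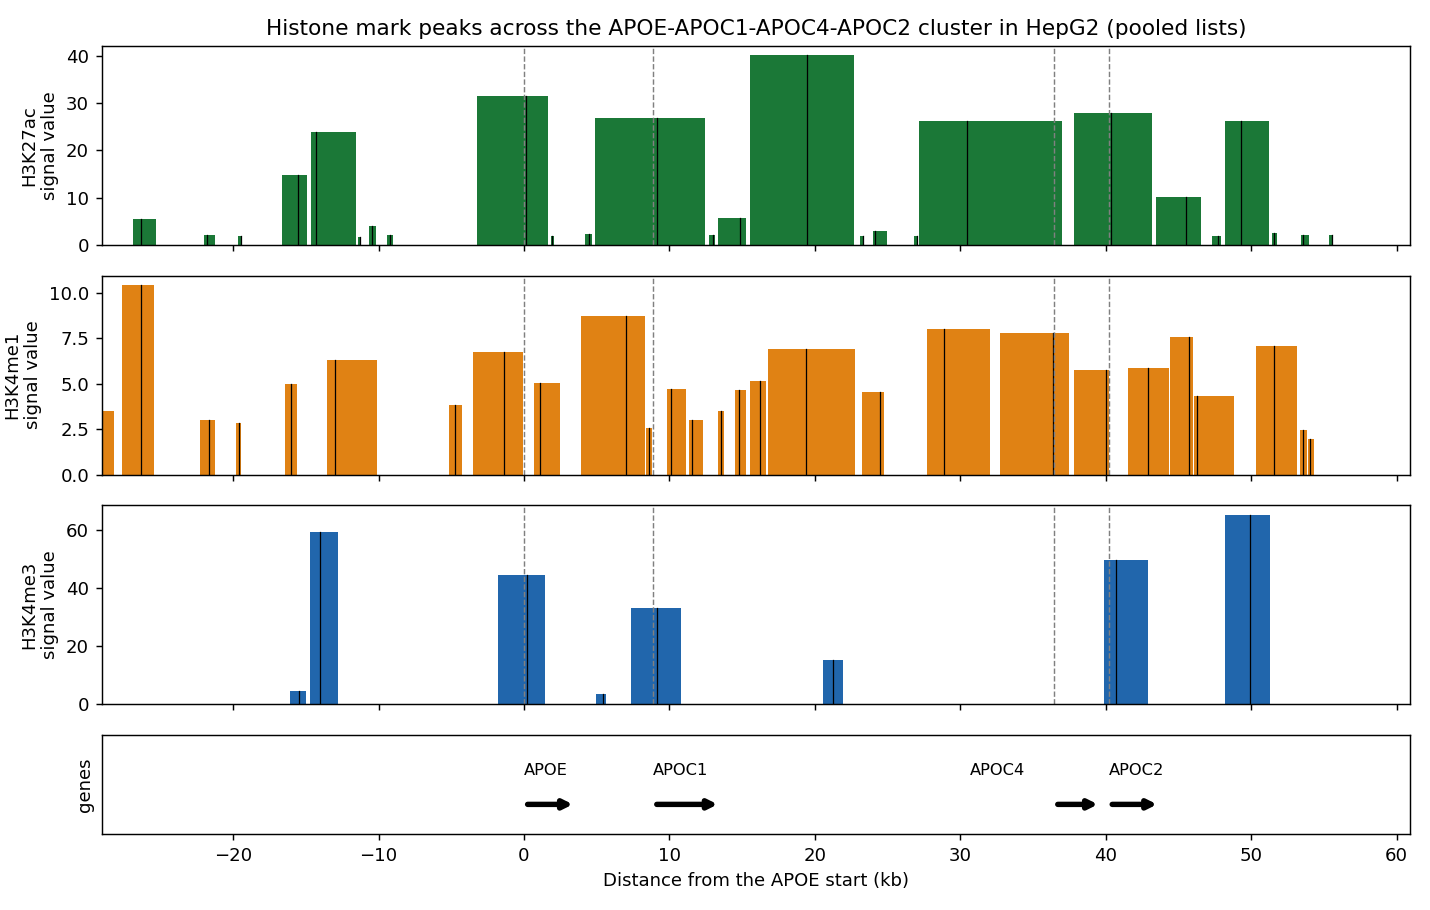
Peaks of each mark across the window, with distance from the APOE start in kb on the x axis and the authors' signal value on the y axis of each of the upper panels. Bars show the extent and signal value of a peak, black lines its summit, dashed lines the 4 gene starts and arrows the gene spans. The highest H3K27ac bar, at 40.1, lies between APOC1 and APOC4, and no H3K4me3 bar covers the APOC4 start.

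The start of each gene was examined next, in the order in which the genes lie. APOE, the receptor ligand, had its start inside an H3K27ac peak from 45405792 to 45410657 (signal value 31.4) and an H3K4me3 peak from 45407279 to 45410473 (44.4). Signal values are the authors' own and can be ranked only within a list. By that rank 94.6% of H3K27ac peaks and 78.1% of H3K4me3 peaks had a lower value than these. The summits lay 142 bp and 241 bp downstream of the start. No H3K4me1 peak covered the start base: a gap of 773 bp separated a peak that ended 65 bp upstream (signal value 6.74) from the next, which began 709 bp downstream (5.03).

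APOC1, the inhibitor of lipoprotein uptake, showed the same arrangement. Its start lay inside an H3K27ac peak of 7546 bp, from 45413911 to 45421456 (signal value 26.8), and an H3K4me3 peak of 3470 bp, from 45416382 to 45419851 (33.2). The summits were 259 and 251 bp downstream of the start and thus 8 bp from each other. H3K4me1 again had a gap over the start, of 1026 bp, between a narrow peak of 369 bp that ended 92 bp upstream (signal value 2.55) and a peak that began 935 bp downstream (4.71). The acetylated peak reached 4010 bp upstream of the start and covered most of the stretch between APOE and APOC1.

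APOC4 differed from the other 3 genes in having no H3K4me3 at its start. The nearest H3K4me3 peak began 3407 bp downstream, past the 3′ end of the gene, and the start lay in a stretch of 17904 bp without any H3K4me3 peak. None of the 3259 bp of the APOC4 span lay inside H3K4me3, while 73.8% lay inside H3K27ac and 88.2% inside H3K4me1. The start was inside an H3K4me1 peak of 4762 bp (45441740 to 45446501, signal value 7.81) whose summit lay 112 bp upstream of it. It was also inside the widest H3K27ac peak of the window, of 9795 bp (45436206 to 45446000, 26.2), wider than 99.5% of the list. That peak ended 505 bp downstream of the start and had its summit 5975 bp upstream, in the stretch between APOC1 and APOC4. Allowing a distance of 500 or 1000 bp around the start brought no H3K4me3 peak to APOC4.

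APOC2, the activator of lipoprotein lipase, had the start base used here inside peaks of all 3 marks, for H3K4me1 only narrowly. The H3K27ac peak ran from 45446855 to 45452193 (signal value 27.8) with its summit 170 bp downstream of the start. The H3K4me3 peak ran from 45448902 to 45451959 (49.7), the highest H3K4me3 value at a start of the 4 genes and above 84.5% of its list. It was placed mostly inside the gene, reaching 337 bp upstream and 2720 bp downstream of the start, and covered 75.9% of the APOC2 span. H3K4me1 covered the start base only by 29 bp at the end of a peak from 45446887 to 45449268 (5.75). A gap of 1298 bp followed, and the H3K4me3 summit, 539 bp downstream of the start, lay in it. Measured from APOE, the RefSeq start of APOC2 lay 55 bp further downstream than the start used here, more than those 29 bp. Whether the APOC2 start lies inside H3K4me1 thus depends on the annotated start taken. The next H3K4me1 peak (45450567 to 45453373, 5.85) ran past the 3′ end of the gene.

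Across the 4 genes, H3K27ac peaks held 4 starts, H3K4me3 peaks 3 and H3K4me1 peaks 2. The H3K4me1 count includes APOC2, whose start was covered by 29 bp only and depends on the annotated start taken. The H3K27ac peaks that held the starts had signal values from 26.2 to 31.4, above 92.0% to 94.6% of the list. The value for APOC4, 26.2, belongs to a summit 5975 bp upstream of the start, against 142 to 259 bp for the other 3 genes, and is thus not a level at the APOC4 start. The H3K4me3 peaks at APOE, APOC1 and APOC2 ranged from 33.2 to 49.7, above 65.7% to 84.5% of the list. Without replicate values it cannot be said whether the values of these peaks differ beyond error. A comparison with the starts of other genes was not made, since a gene annotation of GRCh37 was not used here.

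**Figure D2:**
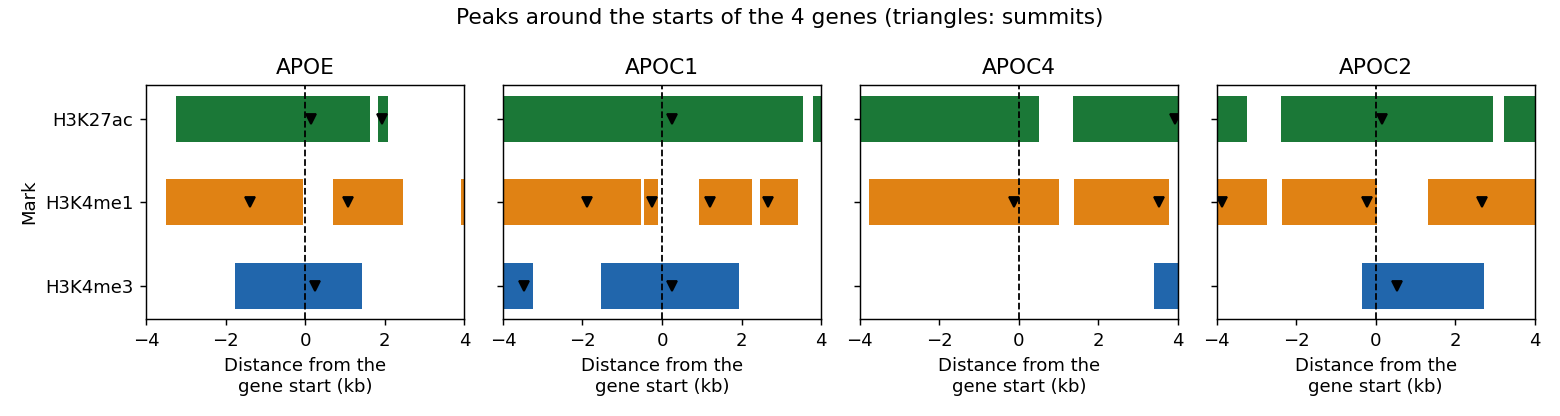
Extent of the peaks of each mark within 4000 bp of the 4 gene starts, with distance from the start in kb on the x axis and 1 row for each mark; triangles are summits. H3K4me1 is interrupted over the starts of APOE (773 bp) and APOC1 (1026 bp) and just inside APOC2 (1298 bp), where H3K4me3 is present, and runs through the APOC4 start, where H3K4me3 is not.

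The stretch between APOC1 and APOC4, of 22888 bp, held the strongest acetylation of the window. RefSeq places the pseudogene APOC1P1 between these genes, and its own position on GRCh37 was not analysed here. The peak from 45424555 to 45431717 had an H3K27ac signal value of 40.1, rank 1855 of 66513, and a width of 7163 bp. Its summit was 10569 bp downstream of the APOC1 start and 28 bp from the summit of an H3K4me1 peak of 5999 bp (45425793 to 45431791, signal value 6.92). H3K4me1 covered 98.1% of that acetylated peak. An H3K4me3 peak of 1378 bp (45429620 to 45430997, 15.3) covered 19.2% of it, with a summit 1812 bp away from the acetylation summit. Its signal value was above 52.0% of the H3K4me3 list.

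Between this peak and APOC1, a weaker H3K27ac peak (45422353 to 45424323, 5.76) crossed the 3′ end of APOC1. Towards APOC4 followed 3 weak H3K27ac peaks, with signal values of 1.93, 2.97 and 1.88, and then the 9795 bp acetylated peak already described. H3K4me1 covered 88.0% of that wide peak through peaks of signal value 7.99 (45436746 to 45441106) and 7.81. Together, H3K27ac covered 86.2% of the stretch from APOC1 to APOC4, H3K4me1 77.3% and H3K4me3 6.02%. The shorter stretch between APOE and APOC1, of 5270 bp, was covered to 85.2% by H3K27ac, 91.3% by H3K4me1 and 42.9% by H3K4me3. There an H3K4me1 peak of 4441 bp (45412946 to 45417386) had a signal value of 8.74, above 97.5% of its list. It contained a weak H3K4me3 peak of 724 bp (45413959 to 45414682, 3.50). The 485 bp between APOC4 and APOC2 lay wholly inside H3K27ac and H3K4me1.

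Coverage of the gene bodies varied. H3K27ac covered 51.9% of the APOE span, 90.9% of APOC1, 73.8% of APOC4 and 92.3% of APOC2. APOE was thus the least acetylated by length, since the peak at its start ended 1618 bp into the gene and a single further peak of 255 bp (signal value 1.80) lay inside it. H3K4me1 covered 48.6% of APOE, 53.5% of APOC1, 88.2% of APOC4 and 63.8% of APOC2. H3K4me3 covered 39.7% of APOE and 41.2% of APOC1, less than in APOC2.

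**Figure D3:**
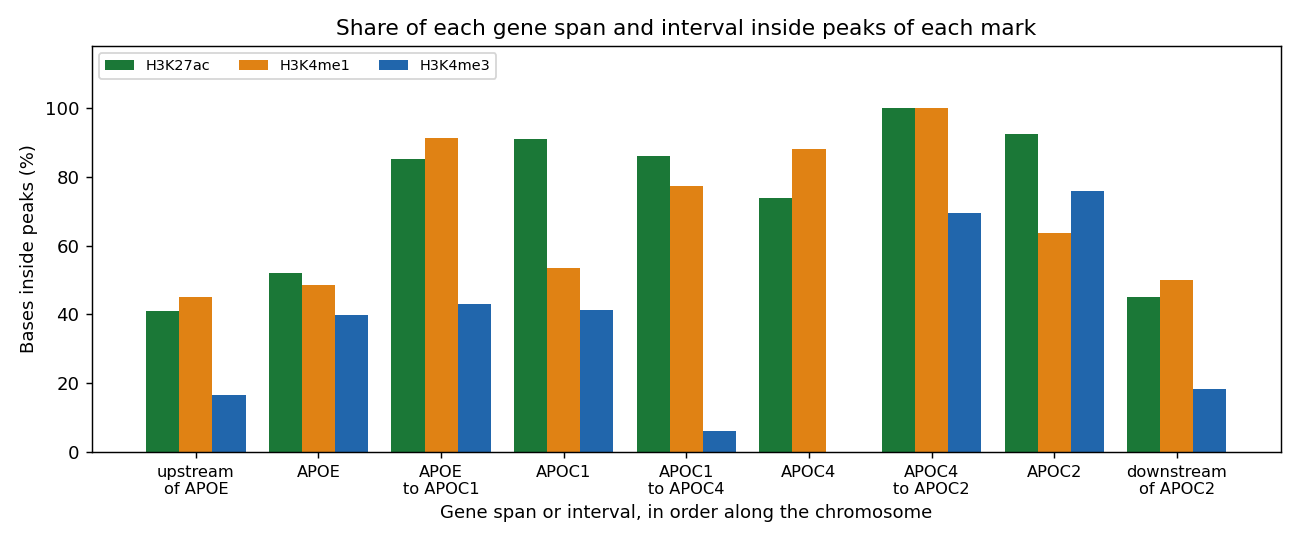
Share of bases inside peaks of each mark, in percent, for the 4 gene spans, the stretches between them and the ends of the window, in order along the chromosome. APOC4 has no H3K4me3 bar, and the stretch from APOC1 to APOC4 has 6.02% H3K4me3 beside 86.2% H3K27ac.

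Both ends of the window carried the highest H3K4me3 values in it, outside the 4 genes. On the APOC2 side a peak from 45457219 to 45460367 had a value of 65.3, above 96.7% of its list, together with H3K27ac of 26.2 (45457267 to 45460296). CLPTM1, which encodes a membrane protein, is the next gene after APOC2 in RefSeq. On the APOE side a peak from 45394353 to 45396280 had an H3K4me3 value of 59.2, above 93.5% of the list, with H3K27ac of 24.0 (45394396 to 45397507). The gene before APOE in RefSeq is TOMM40, which encodes the channel of the mitochondrial outer membrane import complex, preceded by NECTIN2, a cell adhesion gene. Whether these peaks lie at the starts of those genes was not analysed here. A weaker H3K4me3 peak (45392920 to 45394062, 4.64) lay beside the second of them, under H3K27ac of 14.7 (45392373 to 45394150). H3K4me1 was again interrupted at these H3K4me3 summits, by 1474 bp on the APOC2 side and by 2052 bp on the APOE side, where 1 gap took in both summits. The H3K4me1 peak at the right side of that gap (45395460 to 45398898) had a value of 6.31, with a smaller H3K27ac peak inside it (45398393 to 45398837, 3.92).

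The highest H3K4me1 value of the window, 10.4, belonged to a peak upstream of APOE (45381392 to 45383602), above 99.1% of the H3K4me1 list. Its H3K27ac partner (45382145 to 45383707) had a value of 5.44, above 66.0% of the H3K27ac list, and no H3K4me3 overlapped it. Downstream of APOC2, an H3K4me1 peak of 7.57 (45453470 to 45455052) and one of 4.32 (45455114 to 45457871) bridged the way to the last H3K4me3 peak, with H3K27ac of 10.1 (45452469 to 45455614) under the first. A further H3K4me1 peak of 7.06 (45459346 to 45462163) followed. The last peak of the window was an H3K27ac peak that ended at 45464676.

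The peaks were next set against their whole lists by combination of marks. Of the 27 H3K27ac peaks 7 overlapped H3K4me3 (25.9%, 95% Wilson interval 13.2 to 44.7), against 31.7% of the list. H3K4me1 overlapped 23 (85.2%, 67.5 to 94.1), against 87.4% of the list. Of these, 16 overlapped H3K4me1 without H3K4me3 (59.3%, 40.7 to 75.5), against 59.8% of the list, so these shares were near the background. The other 4 overlapped neither mark, against 8.52% of the list. They had signal values from 1.88 to 2.17, each below the list median of 3.15, and lay at 45399647 to 45400051, 45421727 to 45422194, 45435891 to 45436127 and 45464420 to 45464676. Intervals cover counting error only and treat neighbouring peaks as independent.

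H3K4me1 peaks of the window stood further from their list. Of the 27, 26 overlapped H3K27ac (96.3%, 81.7 to 99.3), against 33.4% of the list, and 12 overlapped H3K4me3 (44.4%, 27.6 to 62.7), against 18.9%. The share without either mark was 1 of 27 (3.70%, 0.657 to 18.3), against 61.6% of the list. This count depended on the rule: it was 4 where 50% of a peak had to be covered, 2 with a minimum −log10 q-value of 5, 2 in the stronger 50% of each list and 0 with peaks within 1000 bp joined. The share of the list under those rules was not computed. By the 1 bp rule, the peak without either mark lay upstream of APOE from 45403874 to 45404745 with a signal value of 3.85. In a window that is mostly acetylated, H3K4me1 peaks have more room to meet H3K27ac, and the part of that density in these shares was not tested. The H3K4me1 peaks of the window were also wider, with a median of 1583 bp against 696 bp for the list. A wider peak meets another mark more readily by the 1 bp rule, and the part of width was not tested either.

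All 8 H3K4me3 peaks overlapped H3K27ac, against 77.5% of the list, and all 8 overlapped H3K4me1, against 92.7%. The list share with both was 74.1%, and all 8 summits lay inside an H3K27ac peak, against 76.4%. With 8 peaks the Wilson interval of the share reached down to 67.6%, below each of these list shares. That interval treats neighbouring peaks as independent, so it cannot decide whether the window differs from the list. The summits of 2 H3K4me3 peaks lay inside an H3K4me1 peak (25.0%, 7.15 to 59.1), against 40.6% of the list. They were the peak between APOE and APOC1 (3.50) and the peak between APOC1 and APOC4 (15.3). The other 6 lay in a gap of H3K4me1, and 5 of their signal values, from 33.2 to 65.3, were the highest of the window. The exception was the peak of 4.64 upstream of APOE.

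Peaks of the window were of very unequal strength. H3K27ac signal values ran from 1.68 to 40.1 with a median of 2.97, close to the list median of 3.15. Above the 90th percentile of the list (23.1) were 7 of 27 peaks, against 10% of the list. They made up 71.6% of the bases of all 27 peaks, each taken at its full width. Their values ran from 24.0 to 40.1, and the next lower peak had 14.7. The share of bases in such peaks over the whole list was not computed. Another 14 peaks were below the list median and at most 1016 bp wide. H3K4me1 values ran from 1.96 to 10.4 with a median of 4.97, against 3.42 for the list, and 8 of 27 were above the 90th percentile (6.31). H3K4me3 values ran from 3.50 to 65.3 with a median of 38.8, against 13.3, and 2 of 8 were above the 90th percentile (54.9). None of the 8 was wider than the 90th percentile of its list (3608 bp), whereas 5 H3K27ac and 10 H3K4me1 peaks were wider than theirs (3280 and 2222 bp). By width the list share is 9.99% for H3K4me3 and 10% for the others.

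**Figure D4:**
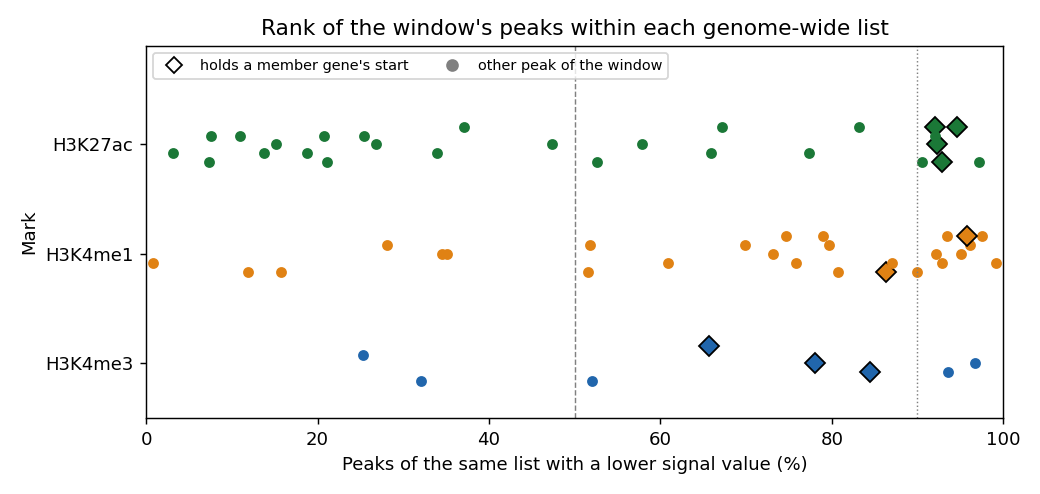
Rank of each peak of the window within its genome-wide list, as the percentage of peaks of that list with a lower signal value (x axis), with 1 row for each mark. Diamonds are peaks that hold the start of a member gene, circles the others, and vertical lines mark 50% and 90%. The 4 H3K27ac diamonds lie between 92.0% and 94.6%, and the 3 H3K4me3 diamonds between 65.7% and 84.5%.

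Acetylated peaks also followed each other closely. With H3K27ac peaks within 1000 bp of each other joined, 7 peaks made a region of 24.9 kb (45435891 to 45460839) with the starts of APOC4 and APOC2, and 7 others made a region of 20.8 kb (45413231 to 45434028) with the start of APOC1. By width these were numbers 69 and 111 of the 43428 joined regions. The wider one ran past the 3′ end of APOC2 and took in the H3K27ac peak from 45457267 to 45460296 (26.2), outside the 4 genes. The APOE start lay in a separate region of 5337 bp, made of 2 peaks and separated from the APOC1 region by an unacetylated gap over the 3′ end of APOE. Joining H3K4me3 peaks in the same way left the starts of APOE, APOC1 and APOC2 in separate regions of 3195, 3470 and 3058 bp.

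At the edges of the window, 1 H3K27ac peak (45379101 to 45380117, 3.35) and 1 H3K4me1 peak (45378758 to 45380845, 3.48) crossed the left edge and counted as members. The nearest peaks outside were H3K4me1 peaks, 2108 bp to the left (3.26) and 6576 bp to the right (4.46). The nearest outside H3K4me3 peaks lay 27119 bp to the left (73.6) and 34214 bp to the right (44.8).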

How the data were processed

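ChIP-seq was done on fixed, sonicated HepG2 chromatin with 300 ng of DNA per immunoprecipitation and paired reads of 51 bp, per the labels' protocols. The authors deposited 1 peak list per mark, pooled over replicates going by its name. MACS2 and build hg19 (GRCh37) are listed in the submitters' processing notes; the aligner, thresholds and use of the control are not given in the sources used here. Listed −log10 p-values went down to 2.00 for H3K27ac and H3K4me1 and to 2.03 for H3K4me3, so the list shares include weak peaks. Peaks ended past an hg19 chromosome end on 0 of 23 chromosomes. The authors' signal value per peak ranked peaks within a list only; the deposited −log10 p-value and −log10 q-value served as alternatives, and the deposited score was not used. Neighbouring peaks share libraries and are not replicates.

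Peaks on chromosomes 1 to 22 and X were used; within a list none overlapped. Peaks overlapped where they shared 1 bp. Positions count from 1. Gene spans came with the definition of the cluster; names, gene order and promoters came from RefSeq GRCh38.p14, matched by symbol for 4 of 4 genes. All H3K27ac and H3K4me3 peaks were to be named, and for H3K4me1 the 10 with the highest signal value and those at or nearest to a gene start; other lipoprotein and liver marker genes were left out for want of a GRCh37 annotation. In the text, weak H3K27ac peaks and some further H3K4me1 peaks are given by range or position. Members and lists were chosen with earlier results of these data known. No test was run, because each mark had 1 pooled list. Overlap code was tested on simulated data. Analyses used Python 3.11.15, numpy 2.4.6, scipy 1.17.1, matplotlib 3.10.9 and GenomeInfoDb 1.38.1.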

Additional observations from a re-analysis of the deposited data

How the results depend on the processing

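All alternatives were planned. Of 65 alternative values for 16 results, 32 stayed within 1.5 times a count or inside the counting interval of a share, and 33 moved further. That interval treats each base of the window, or each peak of a list, as independent and is therefore very narrow. A share could thus count as moved after a small change, such as H3K4me3 coverage of 20.4% with joined peaks against 20.0%. No paired analysis was possible because each mark has 1 list pooled over its replicates, which also leaves no replicate to leave out. H3K27ac held 4 and H3K4me3 3 of the 4 gene starts under each alternative run for them, while H3K4me1 held 2 start bases but had a peak within 500 bp and within 1000 bp of all 4. A minimum −log10 q-value of 5 left 16 H3K27ac peaks, 9 of them with H3K4me1 without H3K4me3, and 2 H3K4me1 peaks without another mark, and covered 57.5% (H3K27ac) and 58.7% (H3K4me1) of the window. The stronger 50% of each list left 13, 7 and 2 such peaks, and covered 55.4%, 56.0% and 18.0% (H3K4me3). Joining peaks within 1000 bp gave 10 H3K27ac and 12 H3K4me1 regions, 4 H3K27ac regions with H3K4me3, 5 with H3K4me1 alone and 0 H3K4me1 regions without another mark, and covered 69.2%, 66.2% and 20.4%. Requiring 50% of a peak to be covered gave 4 H3K4me1 peaks without another mark. A window from 45404039 to 45457822 held 15 H3K27ac peaks, 8 of them with H3K4me1 without H3K4me3, and was covered to 81.5%, 76.9% and 23.1%. By −log10 p-value the top peak of the window was above 97.0% of H3K27ac, 97.6% of H3K4me1 and 92.9% of H3K4me3 peaks. For H3K4me1 this was a different peak, from 45412946 to 45417386. The peak with the highest H3K4me1 signal value stood above 94.9% of its list by −log10 p-value. By signal value among peaks of chromosome 19, the top peak was above 96.5% of H3K27ac, 98.9% of H3K4me1 and 93.7% of H3K4me3 peaks. Fewer or joined peaks follow from how these alternatives are built. Depth is unknown, so an absent peak, such as H3K4me3 at the APOC4 start, may be a weak mark that was not called.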
